A study of Mus musculus with 33 samples.

Results

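The regions described here are 10117 stretches of open chromatin that were on the ATAC-seq peak list of control mouse endothelial cells at E13.5, a mid-gestation stage, and on neither list of the matching cells with added Runx1. They were chosen from measured values: a control peak was taken when it shared no base with any peak of the 1Runx1 list and none with any peak of the 2Runx1 list. They made up 10.5% of the 96537 control peaks. Of the rest, 71183 (73.7%) overlapped a peak in both Runx1 lists, 13034 in the 1Runx1 list only and 2203 (2.28%) in the 2Runx1 list only. They are called missing peaks below, since absence from a list is all that the rule uses.

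The cells were sorted from whole mouse fetuses as CD41-, CD45-, Ter119-, CD31+, VE-cadherin+ and cKIT low to positive, on a mixed C57BL/6J-129Sv/J background. Ctrl carried 1 or 2 copies of a conditional knock-in allele (CKI/CKI and CKI/+) and its labels name no Cre, whereas 1Runx1 carried Cre with CKI/+ and 2Runx1 carried Cre with CKI/CKI. Cre and the added Runx1 copies therefore cannot be told apart in any comparison with Ctrl, and no source used here names the promoter that drives the Cre. All groups received 2 mg tamoxifen, at E13.5 and E9.5 given to the pregnant females 24 hours before harvest, and in the adults by gavage at an interval that the labels do not give. Each E13.5 ATAC-seq group had 2 libraries, combined by the authors into 1 list, so no peak had a replicate check. H3K4me1 regions were listed for Ctrl and for 2Runx1 at E13.5, each from 2 immunoprecipitated libraries and 1 input. The 2Runx1 labels name the region list under the input sample too, so its input and an immunoprecipitated library may have been swapped. The 4 other ATAC-seq lists served for comparison: Ctrl (CKI/+) and 1Runx1 from whole embryos at E9.5, with B6C3F1 added to the background, and Ctrl and 2Runx1 from the livers of adults aged 4 to 6 weeks. RNA-seq at E13.5 had 1 library of Ctrl and 2 each of 1Runx1 and 2Runx1.

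RUNX1 is a DNA-binding factor that endothelium needs in order to form blood. It can open chromatin together with partners and can also recruit repressors. ATAC-seq inserts adapters where DNA is accessible, so its peaks mark promoters and enhancers in use. H3K4me1 is a histone mark of enhancers, active or poised, and of the flanks of promoters, and it can stay at an enhancer after accessibility falls.

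Only 90 of the missing peaks overlapped a listed promoter window, and 29 lay wholly inside one. Windows of 4 genes are shown because they carry the points made below, a promoter whose gene had lower RNA in 1Runx1 and 3 promoters that were open at other stages. They were picked after their values had been seen. Each is the RefSeq window (GRCm38.p6) of 300 bases around a listed start, given 5′ to 3′ on the strand of the gene, and the capitals mark the bases of the missing peak.
Ermap: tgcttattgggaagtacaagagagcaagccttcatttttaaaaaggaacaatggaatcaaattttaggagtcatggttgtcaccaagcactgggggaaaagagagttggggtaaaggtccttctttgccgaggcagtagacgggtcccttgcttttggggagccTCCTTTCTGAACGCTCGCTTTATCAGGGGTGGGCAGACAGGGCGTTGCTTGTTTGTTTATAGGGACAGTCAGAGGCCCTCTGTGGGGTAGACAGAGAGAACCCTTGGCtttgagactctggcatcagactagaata
Grap2: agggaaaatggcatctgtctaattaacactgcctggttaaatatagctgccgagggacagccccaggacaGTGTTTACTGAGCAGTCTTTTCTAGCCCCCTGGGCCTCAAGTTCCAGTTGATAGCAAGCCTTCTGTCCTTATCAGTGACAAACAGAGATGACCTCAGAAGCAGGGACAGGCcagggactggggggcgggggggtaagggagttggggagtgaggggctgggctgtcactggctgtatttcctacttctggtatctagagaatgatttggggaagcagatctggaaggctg
Tcf20: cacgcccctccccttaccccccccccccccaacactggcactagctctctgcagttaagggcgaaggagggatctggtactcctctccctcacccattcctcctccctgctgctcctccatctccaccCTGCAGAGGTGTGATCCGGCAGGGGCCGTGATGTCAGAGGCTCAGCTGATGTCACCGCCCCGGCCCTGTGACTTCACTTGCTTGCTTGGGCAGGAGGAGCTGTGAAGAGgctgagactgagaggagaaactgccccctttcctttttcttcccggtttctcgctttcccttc
C3ar1: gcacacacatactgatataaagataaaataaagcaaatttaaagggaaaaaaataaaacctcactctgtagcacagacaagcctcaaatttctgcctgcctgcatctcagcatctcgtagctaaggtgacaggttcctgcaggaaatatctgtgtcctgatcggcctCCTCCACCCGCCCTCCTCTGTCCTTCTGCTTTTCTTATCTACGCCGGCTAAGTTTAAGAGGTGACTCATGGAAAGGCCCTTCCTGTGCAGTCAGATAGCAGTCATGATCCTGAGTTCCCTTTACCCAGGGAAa
The Ermap window (chr4:119189946-119190245, minus strand) belongs to a gene for a surface protein of erythroid cells, and its peak of 108 bases was on none of the other 4 ATAC-seq lists and overlapped no H3K4me1 region. The Grap2 window (chr15:80623233-80623532, plus strand) belongs to a gene for an adaptor of immune receptor signalling, and its peak was on both E9.5 lists. The Tcf20 window (chr15:82912085-82912384, minus strand) belongs to a transcriptional coregulator gene, and its peak was on both E9.5 lists and inside H3K4me1 regions of both genotypes. The C3ar1 window (chr6:122856108-122856407, minus strand) belongs to the gene of the receptor for complement fragment C3a, and its peak was on all 4 other lists, a pattern seen in 63 missing peaks (0.623%).

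The promoters under missing peaks were poorer in CpG than those under kept peaks, without matching for peak strength. Of the 11929 peaks on both Runx1 lists within 1 kb of a listed start, 9259 had a −log10 q, the strength described below, of 50 or more. No missing peak was that strong, so the part of strength in the contrasts of this paragraph was not tested. Windows that overlapped a missing peak and no peak kept in both lists numbered 95, with a median GC content of 53.3% and a median of 6 CG dinucleotides, against 62.3% and 22 in the 12466 windows under peaks on both Runx1 lists. Among all 21238 windows of coding genes the medians were 56.3% and 13. Letters of known motifs were searched on both strands and may overlap one another. The core RUNX motif TGTGGT was in 9.47% of the 95 windows, 11.1% of windows under kept peaks and 15.0% of all windows. The KLF/SP letters GGGCGG were in 26.3%, 68.6% and 46.2%, and the ETS letters CCGGAA in 10.5%, 27.5% and 18.7%. The GATA letters AGATAA were in 15.8%, 5.33% and 9.65%, and the AP-1 letters TGANTCA in 12.6%, 4.37% and 6.99%. Windows with no control peak at all stood at 16.0% for GATA, 10.7% for AP-1 and 20.8% for RUNX, so for GATA and AP-1 the windows under missing peaks lay close to promoters without a peak. A match describes the letters of the window and not a bound site.

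The missing peaks were mostly weak peaks. The following values belong to the lists that chose them and are given as a description. The authors' peak caller gave each peak a −log10 q and a fold enrichment over background. The median −log10 q was 4.15 in missing peaks, 18 in all control peaks and 31.1 in peaks on both Runx1 lists, and the median fold enrichment was 3.61, 6.93 and 9.10. Median widths were 140, 306 and 393 bases. The share missing fell from 68.9% of control peaks with a −log10 q under 2 to 17.0% between 5 and 10, 2.63% between 10 and 20 and 0.12% between 20 and 50, and was 0 of 25683 at 50 or more. Of the members, 64.5% had a −log10 q under 5, as did 15.4% of all control peaks, and 492 reached 10 and 24 reached 20. At the edge of the rule, the 149 missing peaks within 50 bases of a Runx1 peak and the 437 control peaks that overlapped one by at most 50 bases had the same median −log10 q of 3.45 and the same median fold of 3.41.

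Each list had such peaks of its own. The 1Runx1 list held 10889 peaks (10.9% of 100268) that overlapped no peak of Ctrl or 2Runx1, and the 2Runx1 list held 3631 (4.49% of 80857). Their median −log10 q was 4.19 and 4.09. The 2Runx1 list was the shortest, and when every list was cut to its 80857 strongest peaks the missing peaks numbered 5941. With control peaks limited to a −log10 q of at least 5, 3593 were missing, 4.4% of those considered. The read depth of the ATAC-seq libraries is not known from these files, so its part in the absence of weak peaks was not tested.

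**Figure D1:**
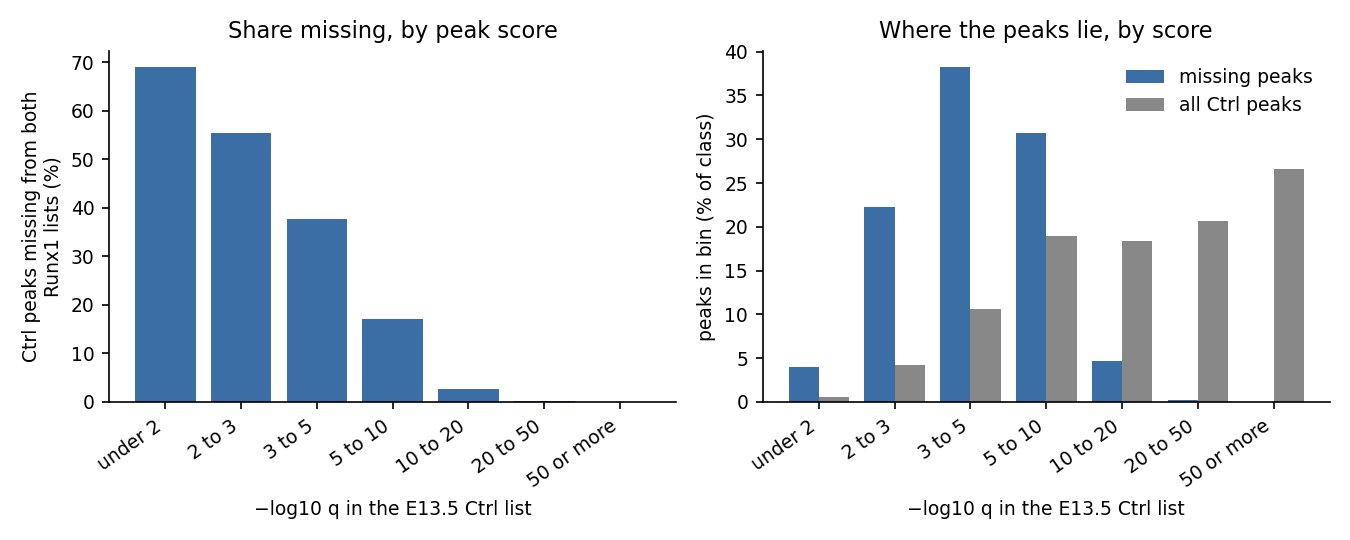
Share of E13.5 Ctrl ATAC-seq peaks missing from both Runx1 lists (left, in percent of the peaks in a bin) and distribution of missing and all Ctrl peaks (right, in percent of each class) over bins of −log10 q in the Ctrl list. The share missing is 68.9% in the lowest bin and 0 in the highest, and most missing peaks lie between 2 and 10.

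The strongest members were isolated exceptions to this weakness. The highest −log10 q, 32.1 with a fold enrichment of 11.2, was at chr9:77379772-77379975, 32.0 kb from the start of Mlip, a muscle lamin-interacting protein gene that was at 0 RPKM in the E13.5 Ctrl library and 0 to 0.0774 in the other E13.5 libraries. It lay 1.72 kb from the nearest 1Runx1 peak and 1.74 kb from the nearest 2Runx1 peak, was on the E9.5 Ctrl list, was missing from the E9.5 1Runx1 list, and had no H3K4me1 region in either genotype. The next, at chr19:32170257-32170402 inside Sgms1, a sphingomyelin synthase gene, had a −log10 q of 31.1 and was on both E9.5 lists. The third, at chr11:24414959-24415067, had a −log10 q of 28.8, lay 241 kb from the body and 334 kb from the start of Bcl11a, the repressor gene of globin switching, and was on no other ATAC-seq list. A peak at chr5:140792257-140792525 inside Gna12, a G protein subunit gene, had a −log10 q of 23.6, H3K4me1 in both genotypes and was on the E9.5 Ctrl list and not on that of E9.5 1Runx1. Of the 10 strongest, 7 were on the E9.5 Ctrl list and 4 of these were absent from E9.5 1Runx1. At scores of 20 to 50, 66.7% of the 24 missing peaks and 93.2% of all control peaks were on the E9.5 Ctrl list. Of those, 6 of 16 missing peaks (37.5%) and 3.29% of all control peaks were absent from E9.5 1Runx1. For missing peaks of any score the share was 36.8%. The others of the 10 lay nearest to, or inside, Inip, Fasl, Zhx2, Pard3, Ldhal6b and Med13l. Some high scores came with low enrichment: 23.6% of the 492 members with a −log10 q of at least 10 had a fold under 5. The share was 6.73% among all other control peaks above the same limit. The scores of these classes were not matched. Of the 492 members, 468 lay between 10 and 20, whereas 25683 control peaks, none of them missing, reached 50.

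Most missing peaks had no H3K4me1 region in either genotype. Of the 10117, 6297 (62.2%) overlapped no region, 1373 (13.6%) a region in both genotypes, 2255 (22.3%) in 2Runx1 only and 192 (1.9%) in Ctrl only. In Ctrl 15.5% were marked (95% Wilson interval 14.8 to 16.2) and in 2Runx1 35.9% (34.9 to 36.8). The same shares were 34.7% and 61.2% for peaks on both Runx1 lists and 30.1% and 55.0% for all control peaks. All intervals cover counting error over peaks only, and peaks are not replicates of a condition. The 2Runx1 list was longer, with 88344 regions over 88.8 Mb against 48795 over 33.4 Mb in Ctrl, so shares may be compared between classes of peaks within a list and not between the lists.

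The mark was rarer at missing peaks than at peaks on both Runx1 lists at equal strength as well. Among control peaks with a −log10 q from 5 to 10, 16.4% of missing and 27.6% of kept peaks were marked in Ctrl. From 3 to 5 the shares were 16.5% and 24.4%. Peaks kept in 1Runx1 only stood at 18.5% from 5 to 10. Peaks found only in 1Runx1, by their score in that list, stood at 12%. In 2Runx1 the shares of missing peaks and of these classes were 38.1%, 39.2% and 30.4%. The lower marking was thus not particular to missing peaks. Counting the peak's centre alone, which takes no account of its width, 13% of missing and 21.5% of kept peaks were marked in Ctrl at any score. In 2Runx1 the shares were 32.8% and 46.8%. The centre was not counted within score bins, so width and strength were not held equal together. Over all scores, 12.3% of the missing peaks marked in Ctrl (interval 10.7 to 14.0) and 5.55% of the kept (5.28 to 5.85) had no region in 2Runx1. The gap was narrower at equal strength, with 11.8% and 8% from 5 to 10 and 12.7% and 8.67% from 3 to 5. For peaks kept in 1Runx1 only the share was 11.2% from 5 to 10. Of the 1565 missing peaks that carried H3K4me1 in Ctrl, 1373 overlapped a region in 2Runx1, whose list was longer and where the ATAC-seq peak was absent. Of the 24681 kept peaks marked in Ctrl, 23310 overlapped a region in 2Runx1. Of peaks unmarked in Ctrl at any score, 26.4% of the missing and 43.5% of the kept overlapped a region in 2Runx1. The Ctrl regions were weak, with a highest −log10 q of 4.39, and no region list was available per replicate.

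**Figure D2:**
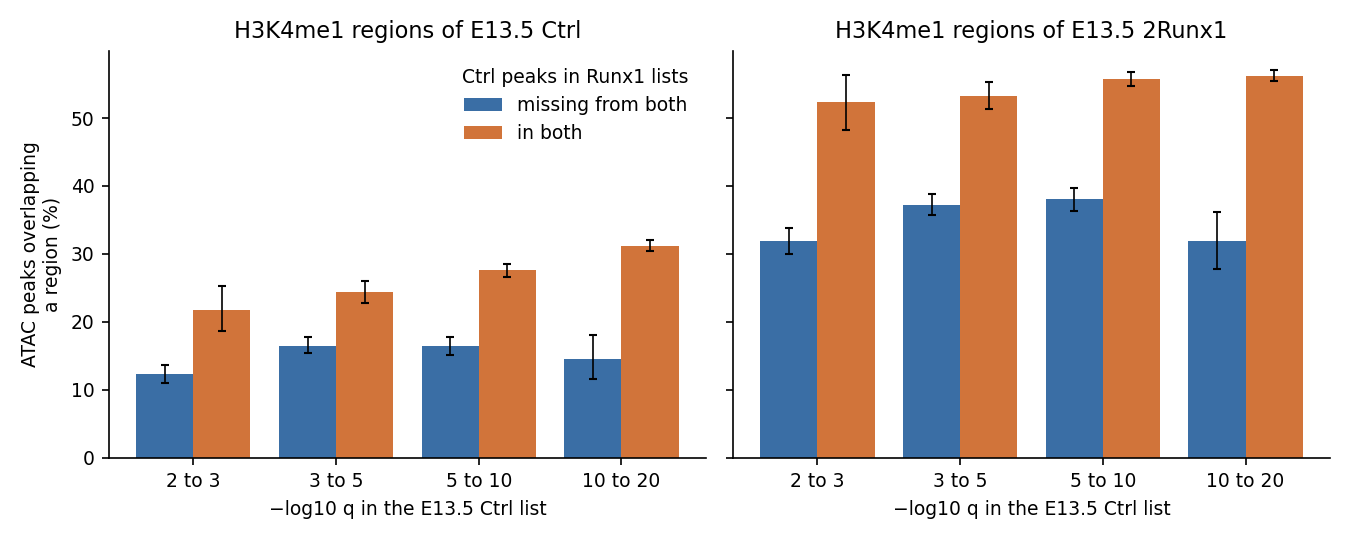
Percent of E13.5 Ctrl ATAC-seq peaks that overlap an H3K4me1 region of E13.5 Ctrl (left) or 2Runx1 (right), for missing peaks and peaks on both Runx1 lists, by −log10 q in the Ctrl list. Bars start at 0 and whiskers are 95% Wilson intervals for counting error. In each of the 4 bins the missing peaks are marked less often.

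Marking followed the distance to the nearest peak of the Runx1 lists, whether or not that peak was on the Ctrl list. The gap from a missing peak to the nearest peak of either Runx1 list was at most 250 bases for 1165 members (11.5%), 251 to 1000 bases for 1977 (19.5%), 1001 to 5000 bases for 3209 (31.7%) and more for 3766 (37.2%). Over these classes the share with H3K4me1 in Ctrl was 30.7%, 27.2%, 15.0% and 4.99%. In 2Runx1 it was 58.5%, 54.5%, 36.0% and 18.9%. The share within 1 kb of a listed start went from 10.1% to 5.61%, 1.4% and 0.982%. The median −log10 q, between 4.10 and 4.15, and the share open in E9.5 Ctrl, between 33.3% and 35.3%, hardly moved. Members marked in both genotypes had a median gap of 0.708 kb, and unmarked members 4.63 kb.

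**Figure D3:**
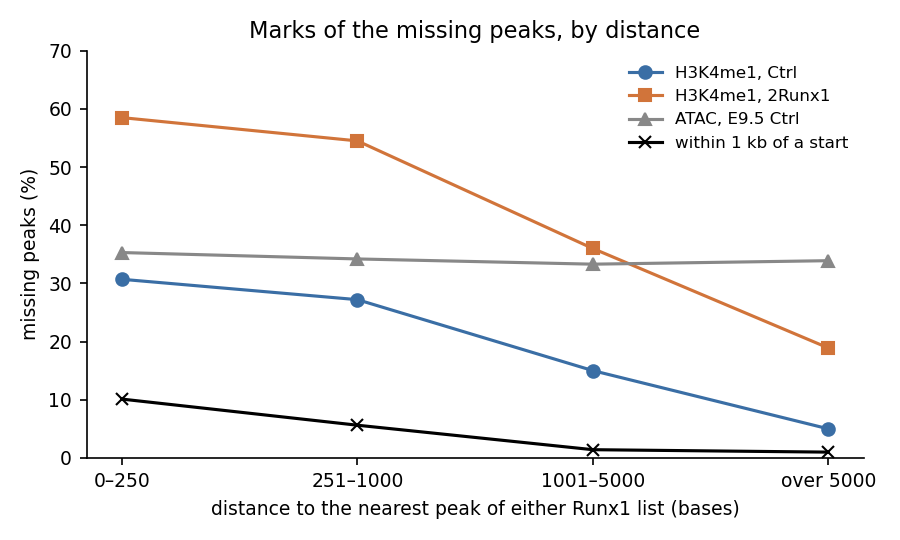
Percent of missing peaks that overlap an H3K4me1 region of Ctrl or of 2Runx1, a peak of E9.5 Ctrl, or lie within 1 kb of a listed start, by distance in bases to the nearest peak of either E13.5 Runx1 list. H3K4me1 in Ctrl goes from 30.7% to 4.99%, whereas the E9.5 share stays between 33.3% and 35.3%.

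Some missing peaks were also open at E9.5, and few were open in adult liver. They overlapped a peak of E9.5 Ctrl in 33.9% of cases (interval 33.0 to 34.9), of E9.5 1Runx1 in 28.4%, of liver Ctrl in 5.54% and of liver 2Runx1 in 4.49%. For all control peaks the shares were 77.9%, 75.9%, 30.4% and 29.5%. On none of these 4 lists were 54.9% of the missing and 6.4% of the kept peaks. At a −log10 q from 5 to 10 the values were 47.4% and 17.6%. In the liver the classes lay close together at equal strength: liver Ctrl peaks overlapped 7.03% of missing and 9.06% of kept peaks with a −log10 q from 5 to 10, and 4.89% and 6.82% from 3 to 5.

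At E9.5 the same places were absent from the Runx1 list more often than places kept in both E13.5 Runx1 lists. This was also true of peaks found only in E13.5 1Runx1. The E9.5 lists took no part in the choice of members. Of the 3289 E9.5 Ctrl peaks at a missing E13.5 peak, 36.3% overlapped no E9.5 1Runx1 peak, compared with 4.61% of the 63903 at an E13.5 peak on both Runx1 lists. The median −log10 q at E9.5 was 6.99 and 31.4, so the former were also weaker at E9.5. Within E9.5 scores of 5 to 10 the shares absent were 35.2% at missing and 16.3% at kept E13.5 peaks, with 27.9% for all E9.5 Ctrl peaks. Within 10 to 20 they were 14.4%, 3.02% and 6.0%. Below a score of 3 the share at missing peaks lay under that of the whole list, with 63.4% and 69.8% from 2 to 3 and 60.5% and 79.5% under 2. Counted over E13.5 peaks that overlapped E9.5 Ctrl, 36.8% of missing and 4.19% of kept peaks had no E9.5 1Runx1 peak. The share was 24.7% for peaks kept in 1Runx1 only and 33.4% for the 10889 found only in E13.5 1Runx1. At E13.5 scores of 5 to 10 they were 35.2%, 11.7%, 25.4% and 30.2%, so the trait was not particular to missing peaks.

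The direction of these differences can be set against peaks found only in 1Runx1. Of missing peaks on a single E9.5 list, 1264 were in Ctrl and 709 in 1Runx1, a ratio of 1.78, and Ctrl held 64.1% of them (interval 61.9 to 66.2). The ratio was 1.29 for peaks kept in both Runx1 lists, 1.68 for those kept in 1Runx1 only, 1.51 for those kept in 2Runx1 only, 1.49 for all control peaks and 0.947 for the 10889 peaks found only in E13.5 1Runx1, of which 1102 were in E9.5 Ctrl alone and 1164 in E9.5 1Runx1 alone. The lean to Ctrl was thus close to that of peaks kept with 1 copy only. In the liver, 249 missing peaks were in Ctrl only and 143 in 2Runx1 only, so Ctrl held 63.5% (58.6 to 68.1), compared with 53.6% for peaks kept in both. The liver ratio was 1.74 for missing peaks, 1.46 for those kept in 1Runx1 only and 1.4 for those kept in 2Runx1 only. It was 1.2 for all control peaks and 0.982 for peaks found only in E13.5 1Runx1. The lean to Ctrl in the liver was thus also present in peaks kept with 1 copy number only. With 1 list per group no test across replicates was possible for any of these counts.

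**Figure D4:**
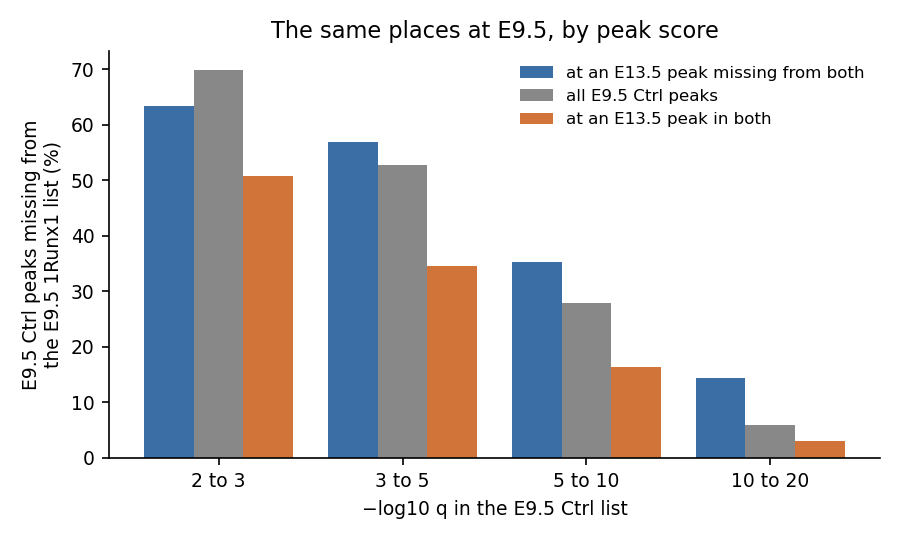
Percent of E9.5 Ctrl ATAC-seq peaks with no overlapping peak in E9.5 1Runx1, by −log10 q in the E9.5 Ctrl list, for those at an E13.5 peak missing from both Runx1 lists, for all, and for those at an E13.5 peak on both lists. At scores from 5 to 10 the bars stand at 35.2%, 27.9% and 16.3%.

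Missing peaks lay away from promoters. Of the members, 311 (3.07%) were centred within 1 kb of a listed start, compared with 13.2% of all control peaks, and 56.3% lay inside a coding gene, compared with 58.2%. At equal strength the gap was narrower: from 5 to 10, 3.06% of missing and 4.95% of kept peaks were near a start. Peaks kept in 1 Runx1 list only were also rare there, so the trait was not particular to missing peaks. Over all scores the share was 3.51% for those kept in 1Runx1 only and 4.18% for those in 2Runx1 only. From 5 to 10 these stood at 3.64% and 4.32%, and all control peaks at 4.2%. Of the members at promoters 24.4% had H3K4me1 in Ctrl and 61.4% in 2Runx1. A nearest gene start within 100 kb could be given to 5908 members (58.4%), at a median of 21.8 kb. Among all control peaks with such a gene, 9.77% were missing, and this is the background for the gene lists below. The members were nearest to 3937 genes, of which 2682 had 1, 817 had 2 and 438 had 3 or more.

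Genes with the most missing peaks had many control peaks. Fyn, a Src-family kinase gene, had 9 of 26 (chromosome 10, between 7.05 and 89.1 kb from its start), with H3K4me1 at 3 of them in Ctrl and 4 in 2Runx1. Adgrl2, an adhesion receptor gene, had 8 of 35. Cald1, which encodes the actin-binding caldesmon, had 8 of 31. Foxp1, a forkhead factor gene, had 8 of 67. Another 9 genes had 7 each. The RNA of Fyn was 95.9 RPKM in Ctrl, 107 and 92.5 in 1Runx1 and 86.4 and 95.5 in 2Runx1, so the groups overlapped. Cald1 was 40.1 RPKM in Ctrl, 33.7 and 30.3 in 1Runx1 and 37.5 and 33.5 in 2Runx1, below Ctrl in all 4 libraries. In limma its difference in 1Runx1 was −0.32 ± 0.08 (SE) on the log2 scale (adjusted p = 0.0407), a call that was lost without 1Runx1 replicate 2 (−0.24), with no filter on low values and with a replicate block (adjusted p = 0.0653).

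Genes of endothelial identity had missing peaks at the background rate. In the endothelial list 16 of 151 assigned control peaks were missing (10.6%), where the rates of the same score bins would give 15.0. Kdr, the VEGF receptor gene, had 4 missing of 29, the nearest 0.814 kb from its start at chr5:75979193-75979345 with a −log10 q of 8.43. That peak was on both E9.5 lists and had H3K4me1 in 2Runx1 alone. Tek, the angiopoietin receptor gene, and Flt1, a VEGF receptor gene, had 3 each, of 16 and 24. Emcn, encoding the sialomucin endomucin, and Erg, an ETS factor gene of endothelium, had 2 each, and Cldn5 and Egfl7 had 1 each. In the arterial list 6 of 83 were missing, among them 1 at Gja5, the connexin 40 gene, 0.032 kb from its start. In the venous and lymphatic list 8 of 72 were missing, 4 of them at Prox1, the lymphatic master regulator, of its 19. In the brain endothelial list 4 of 57 were missing.

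Lists of blood formation and TGFβ signalling stood near the same background. In the hemogenic list 14 of 166 were missing (8.43%, with 14.9 from the score bins): 3 at Tal1, all with H3K4me1 in 2Runx1, and 2 each at Gfi1b, Myb, Meis1, Cd44 and Runx1, while Lyl1 had 1. Gfi1b, a repressor gene that RUNX1 is known to activate in hemogenic endothelium, had 2 of its 3 control peaks missing, the nearest 0.095 kb from its start. The 2 at Runx1 lay at chr16:92639564-92639675 and chr16:92830635-92830786, the latter 4.64 kb from the start, and both had H3K4me1 in 2Runx1 and not in Ctrl. Among TGFβ pathway genes 14 of 143 were missing (9.79%, with 14.7 from the score bins), 4 at the receptor gene Tgfbr2, 3 each at Smad3 and Ltbp1, 2 at Tgfbr1 and 1 each at Smad6 and Smurf1. Of the 4 at Tgfbr2, that at chr9:116156659-116156779 had a −log10 q of 14.6. Among TGFβ target genes 6 of 106 were missing (5.66%), at Col4a1 (2), Cdkn1a, Ccn1, Snai1 and Id2.

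Lists of other cells rested on few peaks. Liver sinusoidal and hepatocyte genes stood above the background, macrophage genes did so through Mrc1 alone, and the others were near or below it. Of 33 control peaks at liver sinusoidal genes 6 were missing (18.2%, with 3.73 from the score bins), 3 of them at Mrc1, the mannose receptor gene. The macrophage list also holds Mrc1, which had 3 of its 7 control peaks missing. No other macrophage gene had a missing peak (3 of 11 for the list, with 1.99 from the score bins). At hepatocyte genes 5 of 27 were missing (18.5%, with 3.36), 3 near Apoa1 and 2 near Ambp. At erythroid genes 2 of 17 were missing, at Hbb-bt and Epor, with 2.5 from the score bins, and of the other lists the megakaryocyte list had 1 of 9, the neutrophil and mast list 0 of 8, the mesenchymal list 3 of 45, the neural list 4 of 49 and the epithelial list 1 of 19.

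RNA of the genes nearest to missing peaks moved about as often as that of all genes. In 1Runx1 against Ctrl, 10.4% of the 12546 genes tested passed limma at an adjusted p under 0.05, 6.34% higher and 4.03% lower. Of the 2724 tested genes nearest to a missing peak, 132 (4.85%) were higher and 116 (4.26%) lower, 9.1% in all. After quantile normalization the split was 106 higher and 152 lower, and that of all genes went from 795 higher and 505 lower to 617 and 635. Their median log2 fold change was −0.005, and that of all genes 0.024. In 2Runx1 against Ctrl, 0.271% of all genes passed, 0.151% higher and 0.12% lower, and of the genes near missing peaks 3 were higher and 1 was lower (0.147%), with a median of 0.006 against 0.018. This split was not stable: it was 7 higher and 17 lower with no filter on low values, 3 and 5 with quantile normalization, 29 and 36 without 2Runx1 replicate 1, 4 and 16 without 2Runx1 replicate 2, and 10 and 8 without either 1Runx1 library. Both comparisons share the single Ctrl library, whose spread was taken to be that of the replicated groups. A fit of the E13.5 libraries alone called 5 of all genes and 2 near missing peaks in 1Runx1, and 0 in 2Runx1. Within 10 kb, 54 genes were higher and 30 lower in 1Runx1 (5.67% and 3.15% of 953). Genes with 3 or more missing peaks were higher in 11 cases and lower in 16 of 361, with a median of −0.036. Where the missing peak had H3K4me1 in Ctrl only, 4 genes were higher and 6 lower of 80.

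Higher RNA in 1Runx1 was found at several genes with a missing peak within 10 kb. Runx1 was 1.37 RPKM in Ctrl, 28.9 and 23.7 in 1Runx1 and 22.7 and 25.2 in 2Runx1, with all Runx1 libraries far above Ctrl. Whether reads of the knock-in count toward this gene is not known. The differences were 3.52 ± 0.12 and 3.39 ± 0.12 (limma adjusted p = 1.76e-07 and 7.68e-07). Stat4, a transcription factor gene of cytokine signalling, was 0.311 RPKM in Ctrl, 4.06 and 3.55 in 1Runx1 and 4.03 and 4.01 in 2Runx1, higher in both groups by 1.87 ± 0.12 and 1.94 ± 0.12 (limma adjusted p = 2.16e-05 and 5.43e-05). Its missing peak, chr1:51998661-51998798 inside the gene with a −log10 q of 15.6, was on both E9.5 lists. F2rl3, the gene of the thrombin receptor PAR4, was 6.46 RPKM in Ctrl, 14.4 and 15.7 in 1Runx1 and 11.5 and 11.6 in 2Runx1, with changes of 1.1 ± 0.10 and 0.75 ± 0.10 (limma adjusted p = 0.000346 and 0.0191). These 3 were the genes within 10 kb called in 2Runx1, all higher.

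Cdkn1a, the gene of the cell cycle inhibitor p21 and a TGFβ target, was 8.05 RPKM in Ctrl, 31.8 and 39.9 in 1Runx1 and 15.6 and 14.6 in 2Runx1. It rose in 1Runx1 by 2.02 ± 0.15 (limma adjusted p = 5.47e-05), and in 2Runx1 the difference was 0.83 ± 0.15 (adjusted p = 0.0543), called without 1Runx1 replicate 1 (0.0158) or replicate 2 (0.016). Its 1 missing peak of 8, chr17:29081014-29081133, had H3K4me1 in both genotypes and was on both E9.5 lists. Igfbp7, which encodes a secreted protein of the vascular matrix and had 4 missing peaks of 18, was 89.9 RPKM in Ctrl, 251 and 210 in 1Runx1 and 111 and 141 in 2Runx1. Paip1, a translation cofactor gene, was 3.61 RPKM in Ctrl, 15.4 and 15.9 in 1Runx1 and 3.39 and 3.09 in 2Runx1, so that 2Runx1 lay below Ctrl. The rises in 1Runx1 were 1.34 ± 0.14 for Igfbp7 and 1.85 ± 0.12 for Paip1. Pcp4l1 (1.04 ± 0.17) and Slc7a1, a transporter gene for basic amino acids (0.96 ± 0.14), completed the 8 largest rises, with limma adjusted p of at most 0.00689 among these 4.

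The 8 largest decreases in 1Runx1 among genes within 10 kb included Ppbp and Sptb, genes of platelets and red cells. Ppbp, the platelet basic protein gene, was 4.64 RPKM in Ctrl, 0.971 and 0.19 in 1Runx1 and 1.17 and 1.47 in 2Runx1, and fell by 1.88 ± 0.23 in 1Runx1 (limma adjusted p = 0.00161). Its only control peak, chr5:90769122-90769235, was missing and lay 0.661 kb from its start. Sptb, the erythroid spectrin gene, was 1.84 RPKM in Ctrl, 0.448 and 1.01 in 1Runx1 and 1.19 and 1.01 in 2Runx1, a decrease of 0.74 ± 0.17 in 1Runx1 (limma adjusted p = 0.0226) that was not called with a pseudocount of 0.1. Mid1, a ubiquitin ligase gene, fell by 0.97 ± 0.13, and Bcat1, an aminotransferase gene for branched-chain amino acids, by 0.92 ± 0.11, each with 4 missing peaks. Plagl1, an imprinted zinc finger gene, was 170 RPKM in Ctrl, 94.5 and 102 in 1Runx1 and 125 and 117 in 2Runx1, and its 4 missing peaks of 13, from 8.96 to 19.2 kb away and all inside the gene, had H3K4me1 in 2Runx1, 1 of them in Ctrl too. Odc1, the ornithine decarboxylase gene of polyamine synthesis, was 244 RPKM in Ctrl, 165 and 153 in 1Runx1 and 249 and 223 in 2Runx1. Plagl1 fell by 0.79 ± 0.10, Odc1 by 0.62 ± 0.07, Tmcc2 by 0.70 ± 0.12 and Zfp820 by 0.83 ± 0.20 (limma adjusted p from 0.00142 to 0.0288), and Zfp820 was not called without 1Runx1 replicate 1 or with no filter.

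Ermap, whose promoter window is shown above, was 4.31 RPKM in Ctrl, 2.16 and 2.88 in 1Runx1 and 2.39 and 1.74 in 2Runx1, with Ctrl above all 4. The decrease in 1Runx1 was 0.60 ± 0.15 (limma adjusted p = 0.0343) and was not called without 1Runx1 replicate 1 (−0.45), with a pseudocount of 0.1, with no filter or with a replicate block (adjusted p = 0.0557). In 2Runx1 the difference was −0.80 ± 0.15 (adjusted p = 0.0744), called without either 1Runx1 library (0.0265 and 0.0264) and without 2Runx1 replicate 1 (0.0167). Grap2, C3ar1 and Mlip were below the filter for testing, Grap2 between 0.0366 and 0.116 RPKM. Tcf20 was 1.06 RPKM in Ctrl and 0.765 to 1.03 in the others.

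**Figure D5:**
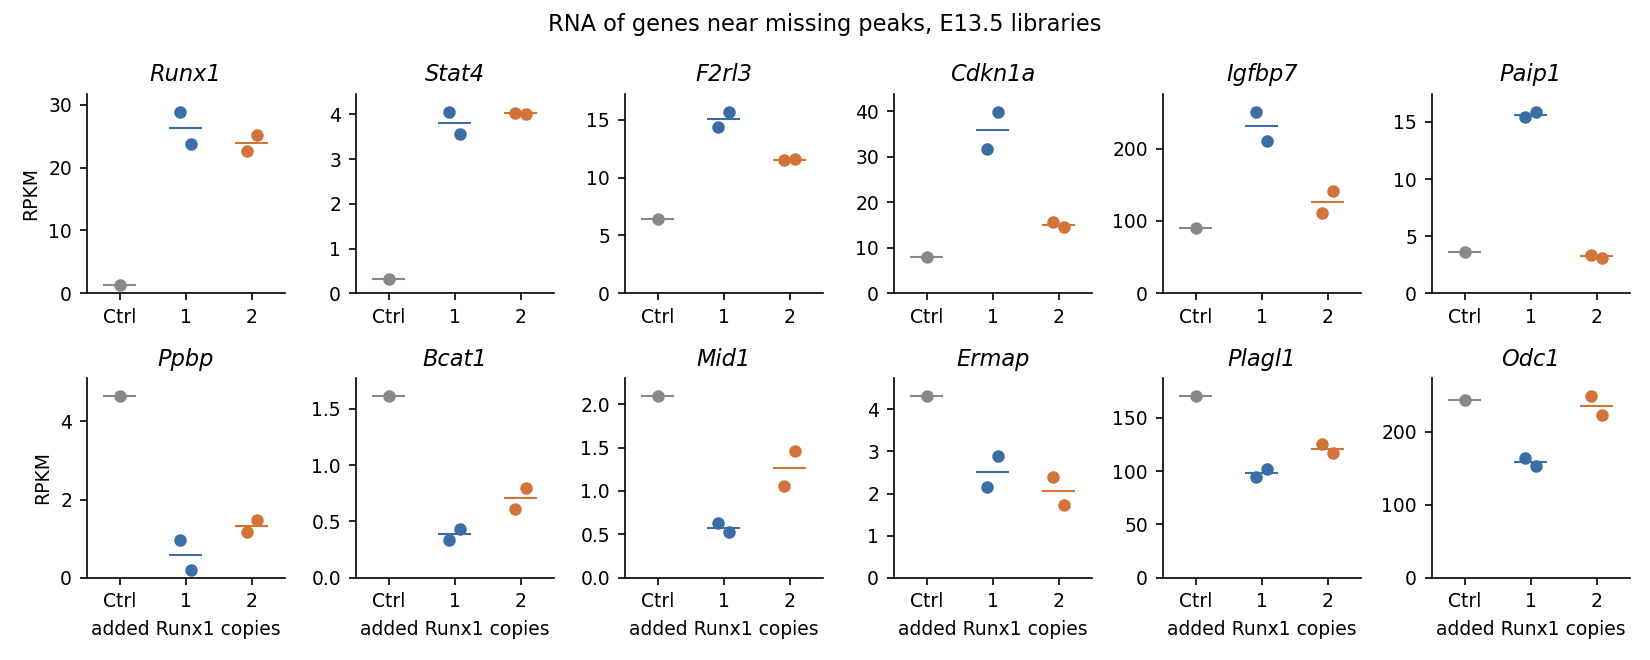
RPKM of 12 genes near missing peaks in each E13.5 RNA-seq library (points) with the group mean (line), for Ctrl (1 library) and 1 or 2 added Runx1 copies (2 libraries each), on linear axes from 0. Runx1, Stat4, F2rl3, Cdkn1a and Igfbp7 are higher in all 4 Runx1 libraries, and Ppbp, Bcat1, Mid1, Ermap and Plagl1 are lower in all 4.

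Of the 45 marker genes near a missing peak that could be tested, 20 were examined singly. These had the highest mean RPKM over all 13 libraries, liver included. In 1Runx1 5 of the 20 were called, beside 10.4% of all genes tested. Besides Runx1 and Cdkn1a, Egfl7 (0.24 ± 0.05) and Cldn5 (0.48 ± 0.08) rose and Tek fell by 0.39 ± 0.08, with limma adjusted p of 0.0175, 0.00831 and 0.0131. The calls of Egfl7, Cldn5 and Tek were lost in a fit of the E13.5 libraries alone. Cldn5, the tight junction gene, was 334 RPKM in Ctrl, 467 and 465 in 1Runx1 and 366 and 428 in 2Runx1. Tek was 157 RPKM in Ctrl, 124 and 115 in 1Runx1 and 137 and 150 in 2Runx1. Kdr was 237 RPKM in Ctrl, 223 and 185 in 1Runx1 and 223 and 228 in 2Runx1, a difference of −0.22 ± 0.10 in 1Runx1 (adjusted p = 0.185) that was called without 1Runx1 replicate 1 (−0.36, adjusted p = 0.0336). Emcn was 378 RPKM in Ctrl, 254 and 291 in 1Runx1 and 365 and 269 in 2Runx1, a difference of −0.47 ± 0.14 in 1Runx1 (limma adjusted p = 0.0588). It was called with quantile normalization (adjusted p = 0.0371), without 1Runx1 replicate 2 (0.0488) and without either 2Runx1 library (0.00481 and 0.00476). Clec4g, a lectin gene of liver sinusoids, ranged from 6.28 RPKM in Ctrl to 23.7 and 14.4 in 1Runx1 and 6.94 and 22.9 in 2Runx1, so that libraries of 1 group lay far apart, and its difference in 1Runx1 of 1.42 ± 0.47 (limma adjusted p = 0.0816) was called without either 2Runx1 library (0.00248 and 0.00251). Tgfbr2, with 4 missing peaks, was 66.3 RPKM in Ctrl, 73.4 and 68.8 in 1Runx1 and 83.1 and 80.1 in 2Runx1, differences of 0.10 ± 0.09 and 0.29 ± 0.09 that did not pass (adjusted p = 0.492 and 0.209), although that in 2Runx1 was called with a replicate block (0.35, adjusted p = 0.0481).

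Summed erythroid, macrophage, megakaryocyte and neutrophil markers were highest in the single Ctrl library. The sums of the hepatocyte, mesenchymal, neural and epithelial lists in 2Runx1 lay on both sides of it. Among all genes tested, 4.03% were called lower in 1Runx1 and 0.12% in 2Runx1. All calls here rest on the single Ctrl library, and a fit of the E13.5 libraries alone called 5 of all genes in 1Runx1 and 0 in 2Runx1. The summed RPKM of 13 hepatocyte genes was 280 in Ctrl, 207 to 209 in 1Runx1 and 200 to 289 in 2Runx1. Of the 11 tested hepatocyte genes 9 were called lower and 1 higher in 1Runx1, and 1 was called lower in 2Runx1. The hepatocyte sum leaned on Trf, at 90.7 RPKM in Ctrl, 144 and 134 in 1Runx1 and 115 and 117 in 2Runx1. Ttr, at 5.8 in Ctrl, was 22.7 and 19.8 in 1Runx1 and 3.25 and 59.2 in 2Runx1. Afp went the other way, with 78.3 in Ctrl, 14.9 and 20 in 1Runx1 and 35.9 and 46.3 in 2Runx1. Of the 9 tested erythroid genes 6 were lower in 1Runx1 and 2 in 2Runx1, with a sum of 149 in Ctrl, 59.6 to 97.6 in 1Runx1 and 65.3 to 79.1 in 2Runx1. Hbb-bt and Hbb-bs were at 0 in all 5 libraries. Macrophage genes summed to 55.6 in Ctrl, 33.2 to 40.9 in 1Runx1 and 37.0 to 53.8 in 2Runx1, with 5 of 9 lower in 1Runx1 and Cd163 at 0 in Ctrl. Megakaryocyte genes summed to 30.8 in Ctrl, 16.4 to 23.7 in 1Runx1 and 26.7 to 26.8 in 2Runx1, although Itgb3, an integrin gene of that list, went the other way with 0.862 RPKM in Ctrl, 3.77 and 3.38 in 1Runx1 and 5.15 and 6.62 in 2Runx1. Neutrophil and mast cell genes summed to 30.5 in Ctrl, 11 to 13.2 in 1Runx1 and 16.1 to 20 in 2Runx1. Mesenchymal genes summed to 122, 79.7 to 92.6 and 89.6 to 128 in the same order of groups, neural genes to 52.9, 41.2 to 41.7 and 38.8 to 53.9, and epithelial genes to 5.01, 4.31 to 7.46 and 3.5 to 7.65. Their part in the missing peaks and in the lower RNA of Ppbp, Sptb and Ermap was not tested. In bulk samples fewer cells of a type and less RNA per cell cannot be told apart. The endothelial list summed to 3584 in Ctrl, 3797 to 3878 in 1Runx1 and 3595 to 3644 in 2Runx1.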

How the data were processed

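Peak and region lists were deposited as MACS2 output, 1 per group with replicates combined, per the labels. The submitters' processing notes name Bowtie2 2.3.5.1, SAMtools 1.1, MACS2 2.1.4, STAR 2.7.3a, Subread 2.0.0 and edgeR without roles, and the builds mm10 and GRCm38. Each peak in the authors' lists has a score (10 times −log10 q), a fold enrichment ratio and a −log10 q. Calling threshold, read depth and any shift of ATAC-seq reads are not given in the sources used here. RNA values were deposited by the authors as RPKM. Low values were whole multiples of 1 read, which gave 37754246 to 44540403 recovered reads per library.

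An overlap needed 1 shared base. The nearest gene was the nearest RefSeq start (GRCm38.p6) within 100 kb, given for 17492 of 21887 coding genes, and a peak was left out where a gene with no listed start lay nearer. No whole genome was used, so motifs were read in promoter windows only. RNA was tested as log2(RPKM + 1), which understates changes of low genes, for 12546 genes with RPKM of at least 1 in 2 libraries. Limma 3.58.1 (R 4.3.3) was fitted to all 13 libraries with 7 group means and an intensity trend, two-sided, with Benjamini-Hochberg adjustment over all genes, and was tested on simulated data. An error after ± is the SE. The labels do not say that replicates are separate animals, so p-values measure spread between samples that may be technical. Named genes were the 20 marker genes near a missing peak with the highest mean RPKM over all 13 libraries, up to 8 called genes in each direction within 10 kb, the genes with the most missing peaks and those nearest the 10 strongest. The 4 promoter examples were chosen after seeing values. Members and lists were chosen with earlier results of these data known.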

Additional observations from a re-analysis of the deposited data

Results flagged for a closer look

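The effect of 1 added Runx1 copy differed between E13.5 and E9.5 at 10 of the genes named above, by limma's interaction with Benjamini-Hochberg adjustment over all genes. The differences, as E13.5 minus E9.5 on the log2 scale, were positive for Paip1 (1.77 ± 0.16, adjusted p = 0.000673), Igfbp7 (1.31 ± 0.18, adjusted p = 0.00819), Pcp4l1 (1.29 ± 0.22, adjusted p = 0.0238), Slc7a1 (0.86 ± 0.19, adjusted p = 0.0457), F2rl3 (0.77 ± 0.13, adjusted p = 0.0238) and Egfl7 (0.36 ± 0.07, adjusted p = 0.0281). They were negative for Ppbp (−1.83 ± 0.30, adjusted p = 0.0189), Odc1 (−0.81 ± 0.10, adjusted p = 0.00367), Tmcc2 (−0.70 ± 0.15, adjusted p = 0.0469) and Plagl1 (−0.60 ± 0.13, adjusted p = 0.0395). All rest on the single E13.5 Ctrl library. Most of these genes were named because they were called at E13.5, so the interaction is not independent of that choice.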

How the results depend on the processing

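The number of missing peaks was 8952 with no Runx1 peak allowed within 250 bases and 12898 when a control peak counted as missing if under 0.5 of it was covered in either list, but 3593 for control peaks with a −log10 q of at least 5 and 5941 with lists of equal size. With the centre inside the region, H3K4me1 was at 13% in Ctrl and 32.8% in 2Runx1. Regions with a −log10 q of at least 5 numbered 0 in Ctrl, so no value could be had, and marked 0.722% in 2Runx1. For missing peaks with a −log10 q of at least 5, H3K4me1 in 2Runx1 was 37.2%, and the shares open in E9.5 Ctrl, E9.5 1Runx1, liver Ctrl and liver 2Runx1 were 41.9%, 34.6%, 7.07% and 5.29%. The motif search in windows of 100 bases around summits was not run.

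For 1Runx1 the 248 genes called near missing peaks became 84 within 10 kb, 122 near peaks with a −log10 q of at least 5, and 2 with the E13.5 libraries only, where 5 of all genes were called; without 1 library each they ranged from 182 to 350 (997 to 1779 of all genes), and their median from −0.015 to 0.008. Quantile normalization gave 106 higher and 152 lower in place of 132 and 116. For 2Runx1 the 4 genes became 24 with no filter (149 of all genes), 8 with quantile normalization, 2 near peaks with a −log10 q of at least 5, 8 by nearest gene span, a rule added after seeing the data, and 0 with the E13.5 libraries only (0 of all genes), whereas a pseudocount of 0.1 gave 18 of all genes. Without 1 library each they ranged from 18 to 65, and all genes from 101 to 256. The 2Runx1 median of 0.006 became 0.000 with no filter and with quantile normalization, 0.017 within 10 kb and 0.010 by gene span, and ranged from 0.006 to 0.014 without 1 library each. The cause of these moves was not tested.

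Libraries with the same replicate number shared only that number: their deviations correlated between −0.0611 and 0.107 over 15 pairs of groups. With a replicate block, 211 and 10 genes near missing peaks were called in 1Runx1 and 2Runx1, and the 2Runx1 median was 0.012.

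Signs turned only in differences that had not passed. Without 1Runx1 replicate 1 or replicate 2, the 1Runx1 difference ranged from −0.22 to 0.10 for Fcgr2b, −0.43 to 0.00 for Stab1, −0.25 to 0.14 for Id2, −0.05 to 0.00 for Smad6, −0.05 to 0.15 for Fyn and −0.19 to 0.02 for Adgrl2. Without 2Runx1 replicate 1 or replicate 2, the 2Runx1 difference ranged from −0.34 to 0.25 for Fcgr2b, −0.06 to 0.26 for Col4a1, −0.15 to 0.28 for Slc2a1, −0.79 to 0.17 for Mrc1, −0.04 to 0.19 for Ephb4, −0.34 to 0.09 for Efnb2, −0.35 to 0.14 for Smad6, −0.03 to 0.18 for Pcp4l1, −0.13 to 0.02 for Odc1, −0.04 to 0.13 for Adgrl2, −0.07 to 0.13 for Foxp1, −0.07 to 0.02 for Sgms1 and −0.14 to 0.03 for Med13l. Fyn turned in 1Runx1 with quantile normalization (−0.02). With the E13.5 libraries only, 23 of the named calls were lost. Calls were also gained under 1 or more alternatives, beside those given above, for Ccn1 in 1Runx1 and for Clec4g, Cldn5, Emcn, Igfbp7, Ppbp, Bcat1, Zfp820, Plagl1 and Tmcc2 in 2Runx1, Zfp820 with a replicate block (−0.67, adjusted p = 0.0481).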
